A study of Mus musculus with 10 samples.

Results

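The proteasome is described here through the genes of its subunits. The members were the protein-coding genes whose symbol joins Psm, a letter from a to e and a number, limited to the named subunits of the particle, which gave 38 of the 43629 genes in the table. They were divided into 6 subcomplexes, namely 7 alpha subunits of the 20S core (Psma1 to Psma7), 7 beta subunits of the core (Psmb1 to Psmb7), 3 immunoproteasome subunits (Psmb8, Psmb9 and Psmb10), 6 ATPases of the 19S regulatory particle (Psmc1 to Psmc6), 11 other 19S subunits (Psmd genes) and 4 subunits of other activators (Psme1 to Psme4). The data were RNA counts from kidneys of UM-HET3 mice, a genetically heterogeneous stock made by crossing inbred strains. All mice were male and 4 months old at collection. In the rilmenidine group (n = 4), mice ate the Purina 5LG6 diet with 10 ppm of rilmenidine, an imidazoline drug given against high blood pressure, for 1 month from the age of 3 months. In the control group (n = 6), littermates of the same age and sex ate that diet without the drug.

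The proteasome is the main protease of the cytosol and nucleus, and in most cases it degrades proteins that carry a chain of ubiquitin. Its 20S core is a barrel in which rings of beta subunits, 3 kinds of which cut peptide bonds, lie between rings of alpha subunits that gate the entry. The 19S particle sits on the end of the barrel, where its other subunits bind the substrate and remove the ubiquitin and its ATPases unfold the chain and feed it inwards. Interferons induce the immunoproteasome subunits, which take the place of the cutting beta subunits and alter the peptides offered on MHC class I. Subunits are needed in fixed proportions, and in mammals the transcription factor Nfe2l1 raises their genes together when proteasome activity falls short.

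The libraries held 863605 to 2559118 counts in the control group (median 1489031) and 1813465 to 3232063 in the rilmenidine group (median 2483263), so the treated kidneys were sequenced more deeply. Each library was 1 sample made from the 3′ ends of transcripts. The labelled tissue was checked by its markers. Every library held at least 28005 counts of Kap and 5478 of Slc34a1, both of the proximal tubule, and 1293 of Umod of the thick ascending limb, and at most 20 of the liver gene Alb. The nuclear RNA Malat1 stood between 1182 and 2100 CPM (counts relative to the normalised size of the library) in 4 control kidneys, at 397.9 in control 2 and 283.8 in control 6, and between 306.1 and 393.5 in the rilmenidine kidneys. Counts on olfactory and vomeronasal receptor genes were under 10 CPM in control 6, rilmenidine 3 and rilmenidine 4, the deepest libraries, and above it in the 7 others. The part of depth, Malat1 and receptor counts in the values that follow was not tested beyond the fits named beside them. In whole kidney, fewer cells of a type and less RNA per cell cannot be told apart.

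No proteasome subunit passed the test between rilmenidine and control kidneys, and the average differences were small and mostly positive. The edgeR quasi-likelihood test was run on genes that reached 6 reads in 7 or more of the 10 libraries, and 36 of the 38 subunits met that filter. At an adjusted p-value under 0.05, 0 of the 36 were called, against 0 of 10055 genes (0.0%). At an unadjusted p-value under 0.05, 3 subunits (8.33%) were higher in the rilmenidine group and 0 lower, against 10.6% of all genes tested, of which 4.43% were higher and 6.13% lower. These 3 were Psma2, Psma7 and Psmc3, and the smallest adjusted p-value of any subunit was 0.368. DESeq2 called 60 genes, none of them a subunit, and also gave 3 subunits an unadjusted p-value under 0.05.

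The fitted log2 fold change, the log2 of the rilmenidine level over the control level, was above 0 for 28 of the 36 subunits (77.8%) and for 50.3% of all genes tested. Its median was 0.15 over the subunits and 0.00 over all genes. In none of the 36 did the 4 rilmenidine kidneys all lie above or all below the 6 control kidneys, which occurred in 0.796% and 0.875% of all genes. All 4 rilmenidine kidneys exceeded the control median for 12 subunits (33.3%), against 15.7% of genes, and none did for 3 subunits (8.33%), against 16.2%. These shares describe the list and were not tested, because the members share each kidney's RNA and scaling. The excess of positive values was smaller when depth or Malat1 entered the fit. With log2 library size as a covariate, 21 of 36 subunits were above 0 (median 0.07), with log2 Malat1 20 of 36 (median 0.02), and among the 7 kidneys with receptor counts of at least 10 CPM 22 of 36 (median 0.09). The same fits put 5241 of 10055, 5208 of 10055 and 5021 of 9796 genes above 0.

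By subcomplex, the median log2 fold change was 0.23 for the alpha subunits, 0.22 for the beta subunits, 0.14 for the immunoproteasome, 0.13 for the 19S ATPases, 0.06 for the other 19S subunits and 0.17 for the activators. Values above 0 were found in 5 of 7 alpha subunits, 7 of 7 beta subunits, 1 of 2 tested immunoproteasome subunits, 5 of 6 ATPases, 7 of 11 other 19S subunits and 3 of 3 tested activators. The 14 core subunits together had a median of 0.23 and the 17 subunits of the 19S particle one of 0.10. The subcomplexes were not tested against each other. The ranges of their members overlapped throughout.

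**Figure D1:**
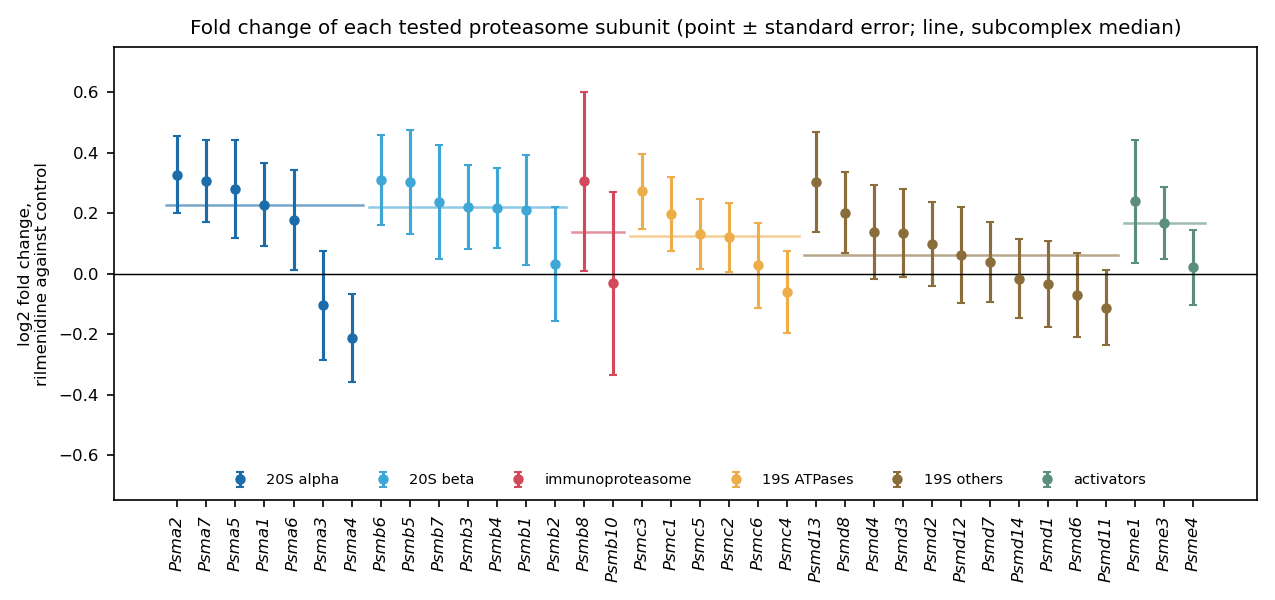
Fitted log2 fold change of each of the 36 tested subunits between 4 rilmenidine and 6 control kidneys (vertical axis), with bars of 1 standard error, by gene along the horizontal axis, where lines mark the median of each subcomplex. Of the 36 points 28 lie above 0, from -0.21 for Psma4 to 0.33 for Psma2, and none has an adjusted p-value under 0.05.

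Among the alpha subunits, Psma2 and Psma7 had the highest average differences and Psma4 the lowest. Promoters of Psma2 and Psma7 are shown because these genes had the smallest p-values of the core. Each window is RefSeq sequence of build GRCm38.p6, from 250 bases before to 50 after the annotated start, read 5′ to 3′ on the strand of the gene, with CCAAT, the box bound by the factor NF-Y, in capitals. The Psma2 window lies at chr13:14612992-14613291 on the plus strand and its box begins 54 bases before the start. The Psma7 window lies at chr2:180042415-180042714 on the minus strand and its box begins 196 bases before the start.
Psma2: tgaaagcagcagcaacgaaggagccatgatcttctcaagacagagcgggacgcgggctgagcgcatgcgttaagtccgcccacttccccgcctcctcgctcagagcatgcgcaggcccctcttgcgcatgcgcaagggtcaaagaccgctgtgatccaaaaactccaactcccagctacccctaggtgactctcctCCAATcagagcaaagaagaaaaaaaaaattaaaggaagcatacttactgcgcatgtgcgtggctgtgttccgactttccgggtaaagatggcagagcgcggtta
Psma7: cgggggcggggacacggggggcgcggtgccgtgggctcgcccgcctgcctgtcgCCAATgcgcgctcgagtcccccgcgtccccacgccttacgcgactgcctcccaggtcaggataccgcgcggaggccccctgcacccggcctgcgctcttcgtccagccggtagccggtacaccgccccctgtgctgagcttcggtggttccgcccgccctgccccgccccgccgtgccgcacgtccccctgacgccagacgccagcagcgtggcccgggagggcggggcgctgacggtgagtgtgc

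A CCAAT box in either orientation was found in 5 of the 8 windows of alpha subunits (62.5%), namely those of Psma1, Psma2, Psma3, Psma6 and Psma7. The share was 34.3% over all 35 member windows, which covered 32 of the 38 subunits, and 37.4% over the 32851 promoter windows of the mouse. Windows of 300 bases were matched by symbol for all members but Psmb1, Psmb2, Psmb7, Psmc3, Psmd3 and Psmd7. A match describes letters, not binding.

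Psma2 (ENSMUSG00000015671, chromosome 13, 14613240 to 14674236) encodes a subunit of the outer ring. Its level in control kidneys was 142 CPM at the lowest, 166 at the median and 212 at the highest, and in rilmenidine kidneys 1 to 4 it was 210, 189, 240 and 215 CPM. All 4 treated kidneys were above the control median, but rilmenidine 1 and 2 lay below the highest control, so the groups overlapped. The group means were 170 ± 23.3 CPM (SD, n = 6) and 214 ± 20.9 CPM (SD, n = 4). The log2 fold change was 0.33 (SE 0.13), and edgeR gave a p-value of 0.020 before and 0.368 after adjustment. Psma2 overlaps the gene AW209491 on the same strand, which held 28 to 95 counts against 151 to 690 for Psma2.

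Psma7 (ENSMUSG00000027566, chromosome 2, 180036374 to 180042433) had 182, 218 and 276 CPM at the lowest, median and highest control kidney, and 295, 253, 287 and 269 CPM in the rilmenidine kidneys. As for Psma2, every treated kidney exceeded the control median while 2 of them lay within the control range. The log2 fold change was 0.31 (SE 0.14), and edgeR gave a p-value of 0.0368 before and 0.441 after adjustment. Psma4, another subunit of this ring, stood apart in direction. Its controls ran from 58.9 to 82.2 CPM around a median of 69.7, and its rilmenidine kidneys had 60.3, 48.3, 67.9 and 60.9 CPM. None of the 4 exceeded the control median, and 3 of them lay inside the control range. The log2 fold change was -0.21 (SE 0.15, adjusted p-value 0.639 in edgeR). Psma3 also had all 4 treated kidneys below the control median, at a log2 fold change of -0.10. The other members, Psma1, Psma5 and Psma6, had log2 fold changes from 0.18 to 0.28, and in each of these 3 rilmenidine 2 was the lowest treated kidney.

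In the beta ring, all 7 subunits had a positive log2 fold change, from 0.03 for Psmb2 to 0.31 for Psmb6, and none had an unadjusted p-value under 0.05. Psmb5, Psmb6 and Psmb7 are the cutting subunits of the ordinary core, with chymotrypsin-like, caspase-like and trypsin-like activity. The promoters of Psmb5 and Psmb6 are shown because they were the member windows of the beta ring with the core of an antioxidant response element, TGACNNNGC, the kind of site that Nfe2l1 and the related factor Nfe2l2 bind. The Psmb5 window lies at chr14:54617946-54618245 on the minus strand, with the match in capitals 47 bases before the start, and the Psmb6 window at chr11:70525107-70525406 on the plus strand, with the match 9 bases before it.
Psmb5: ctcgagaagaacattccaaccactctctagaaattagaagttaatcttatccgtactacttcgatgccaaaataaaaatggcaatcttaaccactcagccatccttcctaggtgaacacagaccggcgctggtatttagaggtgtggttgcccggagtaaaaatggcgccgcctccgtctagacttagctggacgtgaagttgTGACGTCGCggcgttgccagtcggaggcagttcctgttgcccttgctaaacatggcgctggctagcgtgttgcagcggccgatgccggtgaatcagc
Psmb6: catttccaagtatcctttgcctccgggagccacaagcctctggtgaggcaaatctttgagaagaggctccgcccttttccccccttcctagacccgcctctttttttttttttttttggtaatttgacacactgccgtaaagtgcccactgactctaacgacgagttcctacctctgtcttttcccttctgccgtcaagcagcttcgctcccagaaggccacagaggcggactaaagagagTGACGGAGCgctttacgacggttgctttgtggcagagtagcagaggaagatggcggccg

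Both strands were searched. The motif was in 2 of the 4 windows of the beta ring, in 0 of the 8 of the alpha ring and in 5 of all 35 member windows (14.3%), against 12.4% of all promoter windows. The other members with a match were Psmc6, Psmd12 and Psme4.

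Psmb6 (ENSMUSG00000018286, chromosome 11, 70525367 to 70527858) had 58.1 CPM in the lowest, 67.6 in the median and 86.3 in the highest control kidney, and 89.9, 71.1, 97.3 and 94.6 CPM in the rilmenidine kidneys. Only rilmenidine 2 lay within the control range. The log2 fold change was 0.31 (SE 0.15), and edgeR gave a p-value of 0.0534 before and 0.479 after adjustment. Psmb5 overlapped its controls more, with controls from 26.6 to 51.1 CPM around 40.8 and treated kidneys at 53.9, 44.0, 51.1 and 50.6 CPM. All 4 treated kidneys were above the control median, but only rilmenidine 1 exceeded every control. Its log2 fold change was 0.30 (SE 0.17, adjusted p-value 0.554). The last 500 bases of Psmb5 share 32.7% of their windows of 100 bases with another annotated gene, Gm3375, so reads may have been lost or exchanged there.

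Psmb7 ran from 34.7 to 73.1 CPM in controls around a median of 52.6, and stood at 67.3, 58.6, 68.2 and 60.6 CPM in the rilmenidine kidneys. The treated kidneys were all above the control median and all inside the control range, and their spread was narrower, at 4.77 CPM (SD, n = 4) against 15.5 (SD, n = 6). Its log2 fold change was 0.24 (SE 0.19, adjusted p-value 0.698 in edgeR). Psmb2, a structural subunit, had 21.4 to 35.4 CPM in controls around 28.3 and 26.1, 21.7, 36 and 28.7 CPM in treated kidneys. The groups lay on top of each other, at a log2 fold change of 0.03 (SE 0.19). The structural subunits Psmb1, Psmb3 and Psmb4 lay between 0.21 and 0.22. With log2 Malat1 in the fit, 2 of the 7 beta subunits were above 0 and the median was -0.01.

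**Figure D2:**
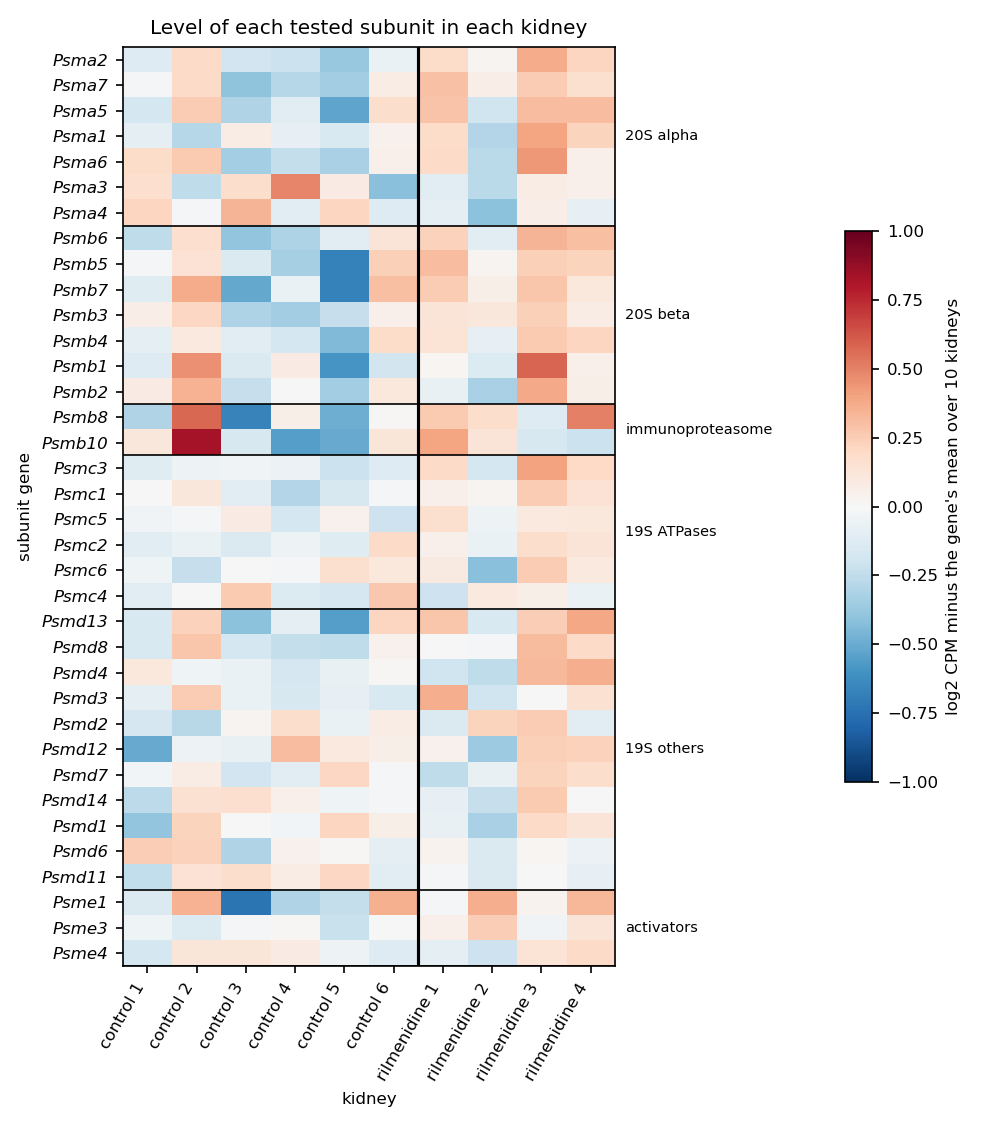
Level of each tested subunit (rows, by subcomplex) in each of the 10 kidneys (columns), as log2 CPM minus the mean of that gene over all kidneys, with red above and blue below it. Rilmenidine 3 is above the mean for 32 of 36 subunits and rilmenidine 2 for 12, while control 2 is above it for 25.

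The immunoproteasome subunits had few counts, with at most 40 reads in a library for any of the 3, so their values carry wide errors. Psmb8 and Psmb9 lie next to the peptide transporter genes in the MHC region of chromosome 17, Psmb8 from 34197721 to 34201454 and Psmb9 from 34181987 to 34187764.

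The interferon-stimulated response element, searched on both strands as GAAA, any 2 bases and GAAA, was in 3 of 35 member windows (8.57%, Psmb3, Psmd4 and Psme1) against 3.44% of all windows. No match of 1 motif overlapped another in the 4 windows printed.

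Psmb8 takes the place of Psmb5. It had 4.98, 7.66 and 13.2 CPM in the lowest, median and highest control kidney and 10.4, 9.77, 7.70 and 12.5 CPM in the treated ones. All 4 lay within the control range, at a log2 fold change of 0.31 (SE 0.30, adjusted p-value 0.766 in edgeR). Psmb10, which replaces Psmb7, had 6.69, 10.2 and 19.2 CPM in controls and 13.9, 11.4, 9.10 and 8.74 CPM in treated kidneys, at a log2 fold change of -0.03 (SE 0.30, adjusted p-value 0.983). Psmb9, which replaces Psmb6, did not pass the filter and was not tested. Its counts were 5, 18, 0, 1, 1 and 8 in controls 1 to 6 and 3, 7, 6 and 10 in rilmenidine 1 to 4. Control 2 held the most of all 10 kidneys. The 0 in control 3 allows up to 3 counts, or 2.49 CPM.

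Whether the cutting subunits shifted towards the inducible set was asked with the log2 ratio of each inducible subunit to the one it replaces, within each kidney. For Psmb8/Psmb5 the mean was -2.21 ± 0.39 in controls (SD, n = 6) and -2.21 ± 0.28 in treated kidneys (SD, n = 4). The two-sided exact permutation test over all 210 splits of the kidneys gave p = 0.981, and the number of splits limits how small its p can be. For Psmb9/Psmb6 the means were -4.49 ± 1.2 and -4.60 ± 0.52 (exact permutation p = 0.876, adjusted 0.981). For Psmb10/Psmb7 they were -2.24 ± 0.36 and -2.47 ± 0.29 (exact permutation p = 0.295, adjusted 0.885 over the 3 ratios). None of the 3 differences exceeded the spread between kidneys. At 0 to 18 counts of Psmb9 a shift of its ratio was hardly measurable.

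**Figure D3:**
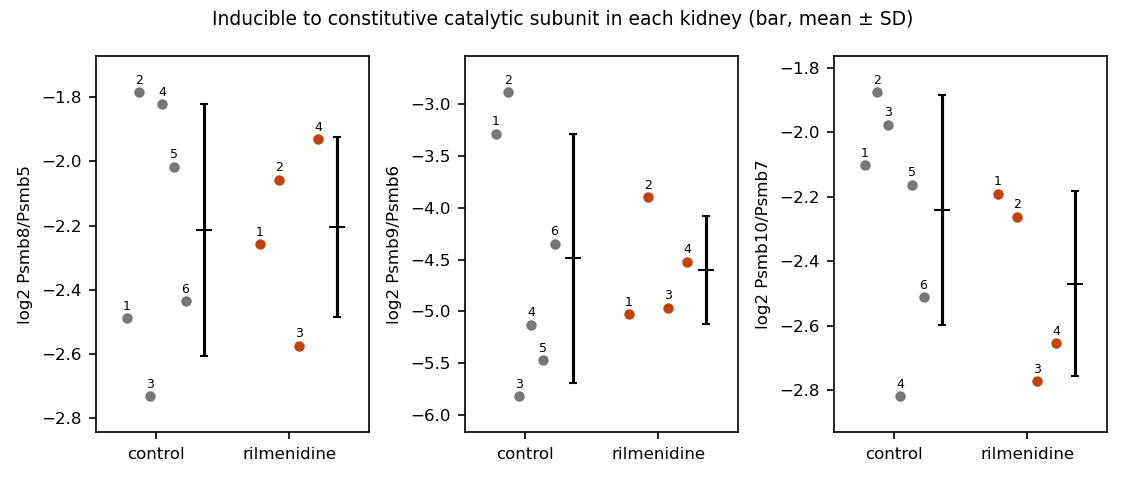
Log2 ratio of each immunoproteasome subunit to the subunit it replaces (vertical axis) in each kidney, as 1 point per kidney for 6 controls and 4 rilmenidine mice, with the group mean and SD. The groups overlap in all 3 panels, and the differences in mean are 0.01 for Psmb8/Psmb5, -0.11 for Psmb9/Psmb6 and -0.23 for Psmb10/Psmb7.

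Psmb9 and Psmb10 were at their highest in control 2, and Psmb8 also. Psmb9 and Psmb10 had a Pearson r of 0.744 over 10 kidneys (permutation p = 0.0145, adjusted 0.0435 over 3 pairs) and a Spearman rho of 0.564 (permutation p = 0.0969, adjusted 0.145). Without control 2 and control 3, the 2 kidneys farthest from the median, r was 0.657 (permutation p = 0.0789). Psmb8 and Psmb9 had an r of 0.671 (permutation p = 0.0338, adjusted 0.0507) and a rho of 0.588 (permutation p = 0.0814, adjusted 0.145), and without the same 2 kidneys r was 0.231 (permutation p = 0.581), so that relation rests on them. Both pairs were computed over kidneys of both groups.

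The summed level of 18 immune cell markers was 985 CPM in control 2, against 261 to 532 in the other controls and 540 to 620 in the treated kidneys. Most of the 985 came from the MHC class II genes H2-Aa (273 CPM), H2-Ab1 (273), H2-Eb1 (122) and Cd74 (95.9). Lyz2, C1qb, C1qc, Cd52, Laptm5 and Fcer1g were also higher in control 2 than in any other kidney. The remaining markers did not peak there. Csf1r had its lowest control value in control 2 (19.2 CPM). Ptprc and Adgre1 were highest in rilmenidine 2 (17.4 and 7.6 CPM), although control 2 was the highest control for both. Of the 14 markers tested 12 had a log2 fold change above 0 (median 0.20), and none had an unadjusted p-value under 0.05. The B cell marker Cd79a was at 0 in every library and the T cell marker Cd3e had at most 8 counts. The summed level of 14 interferon-induced genes was 284 CPM in control 2, between 88.8 and 132 in the other controls and between 122 and 149 in the treated kidneys. Control 2 also held 8800 CPM of 5 blood genes, against 980 to 3240 in the other controls and 2870 to 4120 in the treated kidneys, and 21.6 CPM of 4 liver genes, against 0 to 8.17 and 5.6 to 10.4. The part of immune cells or blood in the immunoproteasome values was not tested. Without control 2, the median log2 fold change of the immunoproteasome was 0.37 in place of 0.14, and without control 5 it was 0.04.

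Among control kidneys the ATPases varied little. The median coefficient of variation among control kidneys was 9.17% over the ATPases and 8.98% over the tested activators, against 12.1% for the other 19S subunits, 17.4% for the alpha ring, 18.0% for the beta ring, 39.8% for the immunoproteasome and 23.5% over all genes tested. It ranged over the 36 subunits from 4.72% for Psmc3 to 42.7% for Psmb10, the latter at few counts. The coefficient includes counting error, which is larger at low counts. The ATPases held 71 to 690 counts a library, while genes entered the comparison from 6 reads.

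Psmc3 (ENSMUSG00000002102, chromosome 2, 91054009 to 91066369) had 149, 163 and 169 CPM in the lowest, median and highest control kidney and 198, 154, 230 and 199 CPM in the rilmenidine kidneys. In the treated group 3 kidneys lay above every control, and rilmenidine 2 lay below the control median. The log2 fold change was 0.27 (SE 0.12), and edgeR gave a p-value of 0.0411 before and 0.450 after adjustment. Psmc3 overlaps Slc39a13 on the opposite strand, which held 29 to 115 counts, and how the strand was handled is unknown. Psmc4 was the ATPase with the lowest value, at 76.9 to 104 CPM in controls around 83.3 and 74.8, 92.9, 89.9 and 82.4 CPM in treated kidneys. Its log2 fold change was -0.06 (SE 0.14, adjusted p-value 0.927). Psmc1, Psmc2, Psmc5 and Psmc6 had log2 fold changes from 0.03 to 0.20.

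The other 19S subunits, which include the scaffolds Psmd1 and Psmd2, the ubiquitin receptor Psmd4 and the deubiquitinase Psmd14, had the lowest median of the 6 sets. Psmd13, a lid subunit, had the highest value. Its controls ran from 79.2 to 137 CPM around 107 and its treated kidneys had 141, 105, 139 and 153 CPM. Rilmenidine 2 again lay below the control median while the 3 others exceeded every control. The log2 fold change was 0.30 (SE 0.16, adjusted p-value 0.536 in edgeR). Psmd13 overlaps Sirt3 at 342 bases on the opposite strand, with 20 to 100 counts of that gene.

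Psmd11, also of the lid, had the lowest value of the set, with controls from 88.7 to 121 CPM around 113 and treated kidneys at 104, 95.0, 105 and 99.0 CPM. All 4 lay under the control median and inside the control range, at a log2 fold change of -0.11 (SE 0.12, adjusted p-value 0.804). Psmd4, singled out after its values were seen, stood at 41.6 to 50.5 CPM in controls and split in the treated group, at 40.6 and 39.1 CPM in rilmenidine 1 and 2 and 58.8 and 60.6 in rilmenidine 3 and 4. Its log2 fold change was 0.14. Psmd14 had a log2 fold change of -0.02, Psmd1 of -0.03, Psmd6 of -0.07 and Psmd2 of 0.10. The median of the 11 was -0.0042 without rilmenidine 3 and 0.0005 without rilmenidine 4, and in the 7 kidneys with receptor counts of at least 10 CPM it was -0.13.

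Of the activators, Psme1 and Psme2 form the interferon-induced 11S cap, Psme3 a nuclear relative of it and Psme4 a large single-chain cap. Psme1 had 19.1, 28.2 and 41.7 CPM in the lowest, median and highest control kidney and 31.9, 41.8, 33.2 and 40.9 CPM in the treated ones, at a log2 fold change of 0.24 (SE 0.20, adjusted p-value 0.717 in edgeR). All 4 were above the control median and rilmenidine 2 only just above the highest control. Psme3 had a log2 fold change of 0.17 (SE 0.12). Psme4 had 109 to 134 CPM in controls around 124 and 115, 106, 135 and 141 CPM in treated kidneys, at a log2 fold change of 0.02 (SE 0.12, adjusted p-value 0.977).

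Psme2 did not pass the filter, with 3 to 15 counts a library, or 2.31 to 4.98 CPM in controls and 6.38, 3.26, 5.25 and 3.75 CPM in the treated kidneys. Its 3′ end shares 35.4% of windows of 100 bases with Psme2b, an intronless copy on chromosome 11, which held 19 to 81 counts. Counted together the 2 genes had 20.2, 24.0 and 34.2 CPM in the lowest, median and highest control and 34.8, 26.6, 33.6 and 27.2 CPM in the treated kidneys. How reads of the 2 genes were divided is unknown, so the level of Psme2 alone is uncertain. Psme1 and Psme2, partners in the same ring, had a Pearson r of -0.127 (permutation p = 0.729, adjusted 0.729) and a Spearman rho of 0.0667 (permutation p = 0.865) over 10 kidneys. With Psme2b added to Psme2, a choice made after seeing the data, r was 0.573 (permutation p = 0.0824).

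**Figure D4:**
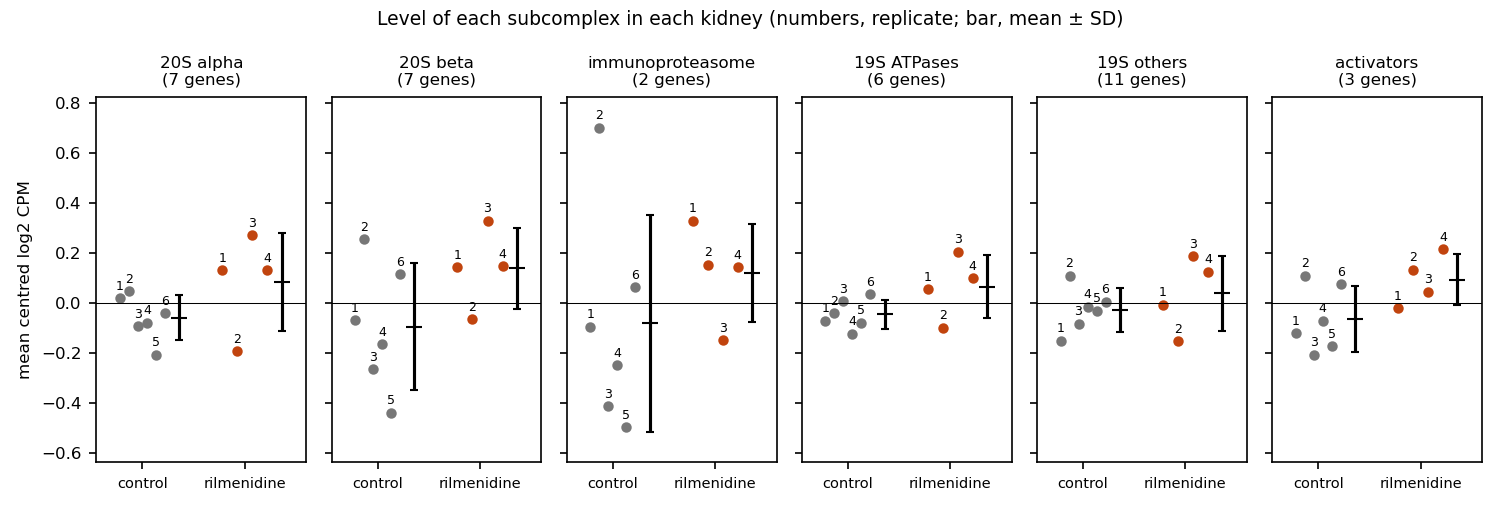
Mean level of the tested subunits of each subcomplex in each kidney, as log2 CPM centred per gene on the mean of all 10 kidneys (vertical axis), with 1 numbered point per kidney and the group mean and SD. Rilmenidine 3 is the highest kidney in the alpha, beta and both 19S panels, and rilmenidine 2 is the lowest treated kidney in these 4.

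Over all 36 subunits, the mean centred log2 level was -0.05 ± 0.12 in controls (SD, n = 6) and 0.08 ± 0.13 in treated kidneys (SD, n = 4). Rilmenidine 3 stood at 0.20 and rilmenidine 4 at 0.14, rilmenidine 1 at 0.08 and rilmenidine 2 at -0.09. Controls 2 and 6, at 0.14 and 0.03, were the highest controls and those with the low Malat1 values, and the 4 controls with high Malat1 lay between -0.19 and -0.08. The number of subunits above their mean over the kidneys was 32 and 30 in rilmenidine 3 and 4, 25 and 23 in controls 2 and 6, 24 in rilmenidine 1, and 8 to 12 in the 4 remaining controls and rilmenidine 2. Only rilmenidine 3 and 4 exceeded every control in the mean level, and rilmenidine 4 by a small margin over control 2.

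The core and the regulatory particle followed each other within kidneys to a degree that differed between kidneys. Control 5 had the lowest core level, -0.32, while its 19S level was -0.05. Rilmenidine 3 had 0.30 and 0.19, and rilmenidine 2 had -0.13 in both. The core level minus the 19S level was -0.04 ± 0.15 in controls (SD, n = 6) and 0.06 ± 0.06 in treated kidneys (SD, n = 4), a difference within the spread of the controls.

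The genes around the proteasome are given from lists of related function. Of 8 assembly chaperones, all tested, 6 had a log2 fold change above 0 (median 0.14), against 50.3% of all genes tested. Psmg3 and Psmg4 were below 0, at -0.12 (SE 0.13) and -0.03 (SE 0.33). Psmg2, which helps to build the alpha ring, had 0.36 (SE 0.16, unadjusted p-value 0.043, adjusted p-value 0.455 in edgeR) and Psmd5, a chaperone of the 19S base, 0.38 (SE 0.21, adjusted p-value 0.536). The list of proteins that associate with the particle was mostly lower, with 7 of 9 tested genes below 0 (median -0.15). Among them Akirin2, which carries proteasomes into the nucleus, had -0.27 and Zfand5, which stimulates degradation, -0.25, at adjusted p-values of 0.574 and 0.541. The 19S subunit Sem1 had 0.20 and the inhibitor Psmf1 0.12. No other gene than Psmg2 in these 2 lists had an unadjusted p-value under 0.05.

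A list of 10 genes linked to transcription of the subunits held factors beside proteins that process Nfe2l1 or belong to ER degradation. Of these 10, 8 were below 0 (median -0.09), against 4999 of 10055 genes tested, and 0 had an unadjusted p-value under 0.05. Nfe2l1 itself had 27 ± 8.63 CPM in controls (SD, n = 6) and 27.1 ± 0.483 in treated kidneys (SD, n = 4), at a log2 fold change of -0.03 (SE 0.21). Its processing factor Ngly1 had 0.20, Foxo4 0.30, Sel1l of the ER degradation machinery -0.31 and Nfyc, a subunit of NF-Y, -0.33. Of the further lists, 4 of 6 ubiquitin and E1 enzyme genes were tested (median 0.10, with Uba1 at 0.15, Ubb at 0.28 and Uba6 at -0.59) and 10 of 12 ubiquitin shuttle and unfolding genes (median 0.03, with Rad23b at 0.26, Faf1 at 0.18, Nploc4 at -0.18 and Ubqln1 at -0.16), none with an unadjusted p-value under 0.05. The antigen processing list (9 of 10 tested, median -0.01) held H2-D1 at 0.43, B2m at 0.21, Canx at -0.15 and H2-K1 at -0.62 (SE 0.58). H2-K1 ran from 30.1 to 188 CPM in controls and stood at 32.5, 29.3, 236 and 30.9 in rilmenidine 1 to 4. Both groups thus held high and low kidneys for this gene. The interferon list (8 of 14 tested, median -0.09) held Irf9 at 0.16, Gbp2 at 0.09, Gbp3 at -0.52 and Irf1 at -0.16. Again no gene of either list had an unadjusted p-value under 0.05.

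**Figure D5:**
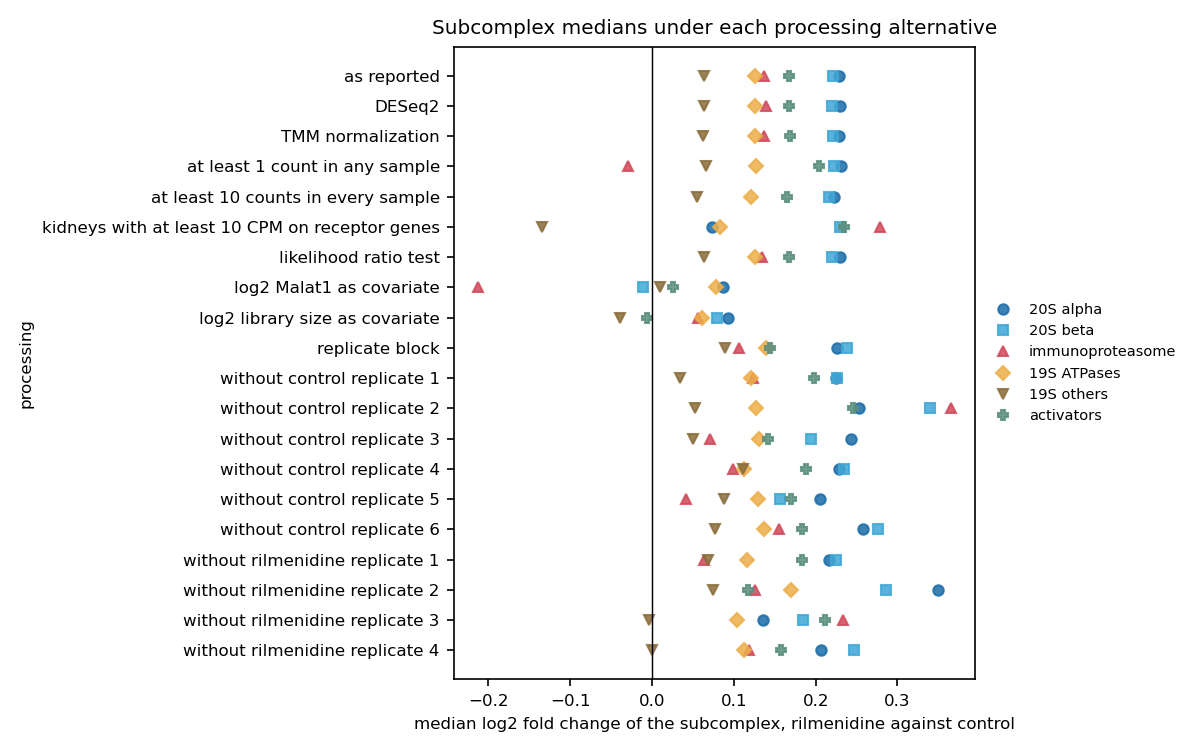
Median log2 fold change of the tested subunits of each subcomplex (horizontal axis) as reported and under each alternative (vertical axis). Medians by TMM and DESeq2 stay near those reported, and those with log2 Malat1 or log2 library size in the fit are nearer to 0 for the alpha and beta rings, at 0.09 and -0.01 with Malat1. The immunoproteasome median (2 genes) is -0.21 with Malat1.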

How the data were processed

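RNA was measured in 10 kidney libraries, 6 control and 4 rilmenidine, grouped and numbered by their labels. The study's methods give a larger number of control kidneys than the labels, and the labels' extraction text describes liver although tissue and source read kidney. The labels' groups and tissue were used. The authors deposited raw read counts per Ensembl gene, made per the submitters' processing notes with bcl2fastq 1.8.4, Trimmomatic 0.32, STAR 2.5.2b and featureCounts 1.5 on mm10. Annotation release, strand setting and the use of molecular identifiers are not given in the sources used here, so overlapping genes are uncertain. If identifiers were not collapsed, counts exceed molecules. The upper bound of 3 counts given for a count of 0 covers counting error only. Of 43629 gene IDs, 42462 were found in GENCODE M21, which gave symbols and GRCm38 gene coordinates.

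Genes that reached 6 reads in 7 or more libraries (10055) were scaled by RLE and tested with edgeR 4.0.16 in R 4.3.3 (quasi-likelihood, no covariate, Benjamini-Hochberg over all genes, threshold 0.05). Log2 levels used a prior count of 2. Ratios were tested with the permutation test of SciPy 1.17.1, and correlations with 100000 random resamples computed apart from it. Promoters came from RefSeq, and 1 motif searched is not reported here. Scripts were tested on simulated data. Alternatives were DESeq2 1.42.0, the likelihood ratio test, TMM, other filters, covariates, a block and leaving out each kidney.

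The members, lists and rules were chosen with earlier results of these data known. Values by kidney are given for the highest and lowest subunit of each subcomplex, subunits with an unadjusted p-value under 0.05 and the cutting subunits, beside Psmd4, which was chosen after its values were seen, and from each related list up to 2 genes a direction by smallest p-value.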

Additional observations from a re-analysis of the deposited data

How the results depend on the processing

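No subunit passed an adjusted p-value of 0.05 under any alternative run, nor at a threshold of 0.1. Over all genes, 60 were called by DESeq2, 44 by the likelihood ratio test, 241 when genes with 1 read in 1 library were kept, 3 with the replicate block, and 0 to 37 when a kidney was left out (33 without control 2, 37 without control 6). The cause was not tested. The number of subunits with an unadjusted p-value under 0.05 was 1 by the likelihood ratio test and 0 with log2 Malat1, log2 library size or the replicate block in the fit and in the 7 kidneys with receptor counts of at least 10 CPM. It was 0 to 7 when a kidney was left out, with 7 without control 2 or rilmenidine 2 and 0 without rilmenidine 3. The share of all genes under that p-value in the same fits was not set beside these counts. They therefore describe the fits and are no result about the subunits.

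With log2 Malat1 in the fit the median log2 fold change was 0.0152 over all subunits, 0.0866 for the alpha ring, -0.0109 for the beta ring and 0.0252 for the activators. For the 2 tested immunoproteasome subunits, both at few counts, it was -0.2125 in place of 0.1371. With log2 library size it was -0.0059 for the activators, and in the 7 kidneys 0.0729 for the alpha ring and -0.134 for the other 19S subunits. Leaving out a kidney gave 0.1038 to 0.2061 over all subunits, 0.1357 (without rilmenidine 3) to 0.3491 (without rilmenidine 2) for the alpha ring, 0.1561 to 0.3402 (without control 2) for the beta ring, 0.0418 to 0.3656 for the immunoproteasome, 0.1038 to 0.1694 for the ATPases, -0.0042 to 0.1116 for the other 19S subunits and 0.1171 to 0.2455 for the activators.

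Of the named subunits, Psmb2 changed sign to -0.1936 (7 kidneys), -0.1782 (Malat1), -0.1416 (library size) and -0.0396 (replicate block), and Psme4 to -0.1741 (7 kidneys), -0.0682 (library size) and -0.0301 (block). With Malat1, Psmb5 was -0.0001, Psmb7 -0.1431 and Psme1 -0.0809, with library size Psme1 was -0.0059, and in the 7 kidneys Psmb10 was 0.2363. Leaving out a kidney gave -0.1144 to 0.1332 for Psmb2, -0.1665 to 0.226 for Psmb10 and -0.0432 to 0.0888 for Psme4. The difference in log2 Psmb9/Psmb6 was 0.2496 at a prior count of 0.5 and -0.378 to 0.2082 without a kidney, and that of Psmb8/Psmb5 -0.096 to 0.131. Correlations ranged from 0.5081 to 0.8343 for Psmb8 with Psmb9, 0.5514 to 0.8253 for Psmb9 with Psmb10 and -0.3027 to 0.1491 for Psme1 with Psme2, which was 0.573 with Psme2b added. TMM and DESeq2 changed no direction of a named subunit.

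No pairing of kidneys by replicate number was seen. Same-numbered kidneys had correlations of -0.0768 to 0.0775 in their deviations over 4 pairs, and 0 of them matched best with their own number. A check over 4 pairs cannot exclude a weak pairing. With the replicate block 27 of 36 subunits were above 0 (median 0.128). Depth limits the low genes, and at 0 to 18 counts Psmb9 was not tested.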

Other observations

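Apart from the 38 subunits, the symbol pattern takes 7 other protein-coding genes. The chaperones Psmd5, Psmd9 and Psmd10 are counted with the assembly factors. The thymus-specific core subunit Psmb11 had 0 to 4 counts a library, the testis-specific Psma8 0 to 3 and Psmc3ip, a recombination factor, 0 to 6, and none of these was tested. Psme2b is described with Psme2.

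In all, 8 subunits share windows of 100 bases in the last 500 bases of their transcripts with another annotated gene. The share was 51.4% for Psmd1, with the overlapping gene Gm21972, 35.4% for Psme2, 32.7% for Psmb5, 24.2% for Psma5 and 20.7% for Psmb3, and under 10% for Psmc1, Psmd2 and Psme1. How reads from such windows were assigned is unknown.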
